A study of Mus musculus with 15 samples.

Results

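Chemokine ligands are small secreted proteins that steer the movement of leukocytes and progenitor cells. The genes described here are those on the array whose symbol is Ccl or Cxcl followed by a number, with Cx3cl1 and Xcl1, and 33 of 18193 genes met that rule. They comprise 13 CXC ligands, 18 CC ligands, Cx3cl1 and Xcl1. Among probe sets that carry 1 symbol, the one with the highest mean of the 15 arrays stood for a gene. The 33 genes have 51 such probe sets, and 13 of them have more than 1.

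Each of 5 groups of mouse cells had 3 Affymetrix arrays, named here by group and replicate number. Mesenchymal stromal cells (MSC) were grown in low-glucose DMEM with 10% fetal bovine serum. The group HD28 was MSC treated for 7 days with HGF (20 ng/ml), a growth factor for hepatocytes, bFGF (10 ng/ml), a fibroblast growth factor, and nicotinamide (0.61 g/L). Oncostatin M at 20 ng/ml, the glucocorticoid dexamethasone at 1 µmol/L and the insulin supplement ITS+ followed. The group dHD28 was HD28 put back into MSC medium. Primary hepatocytes (Hepatocyte) were kept in a hepatocyte medium or in DMEM/F12 with 10% serum. MLC were primary hepatocytes cultured in MSC medium with TGF-β1 at 10 ng/ml to day 7, 5 ng/ml to day 14 and 1 ng/ml to day 28, and then in MSC medium alone. The series title concerns DNA methyltransferases and the reversibility of hepatogenic differentiation. The labels give neither the strain nor the age of the mice and do not say whether replicates came from different cultures or animals. The p-values therefore measure only the spread between these samples.

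The names follow the spacing of conserved cysteines. CXC ligands with an ELR motif, such as Cxcl1, Cxcl2 and Cxcl5, attract neutrophils through Cxcr2. Cxcl9, Cxcl10 and Cxcl11 are induced by interferon and attract T cells through Cxcr3. Cxcl12 is made constitutively by stromal cells of the bone marrow and holds haematopoietic cells there through Cxcr4. Among CC ligands, Ccl2, Ccl7 and Ccl8 attract monocytes. Cx3cl1 (fractalkine) is anchored in the membrane and can be shed. In the liver, Kupffer cells (resident macrophages), sinusoidal endothelium, stellate cells and hepatocytes can all make chemokines.

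Several members are neighbours in the genome. In the RefSeq order of mouse genes, Cxcl5, Cxcl3, Cxcl15, Cxcl1 and Cxcl2 lie in 1 run with Ppbp and Pf4. Another run holds Ccl2, Ccl7, Ccl11, Ccl12, Ccl8 and Ccl1, a further one Ccl5, Ccl9, Ccl6, Ccl3 and Ccl4, and Cx3cl1 lies between Ccl22 and Ccl17. The 120 bases before the start of Cxcl1, Cxcl2 and Cxcl3 are shown because Cxcl2 and Cxcl3 were high in the same single hepatocyte array described below. They are from RefSeq, assembly GRCm38.p6, plus strand, 5′ to 3′, at chr5:90891125-90891244, chr5:90903779-90903898 and chr5:90785981-90786100. Capitals mark matches, on either strand, to GGG and TTCC with any 3 bases between, a form of the NF-kB motif. Matches that overlap run together.
Cxcl1: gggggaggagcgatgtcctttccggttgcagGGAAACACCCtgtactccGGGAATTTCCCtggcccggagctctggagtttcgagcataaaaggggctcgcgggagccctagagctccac
Cxcl2: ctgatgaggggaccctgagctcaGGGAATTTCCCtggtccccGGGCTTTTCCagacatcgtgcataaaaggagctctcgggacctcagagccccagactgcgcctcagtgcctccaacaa
Cxcl3: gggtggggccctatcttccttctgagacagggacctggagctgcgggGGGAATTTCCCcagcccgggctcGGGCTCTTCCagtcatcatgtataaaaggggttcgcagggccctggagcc
In each promoter the pattern matches both strands within 1 of the runs in capitals, shifted by a base, and another match lies nearby. Of 32851 promoter windows in the RefSeq table, 4.65% hold the motif within 250 bases before the start. Of the 23 members with a window, 7 hold it, namely Ccl1, Ccl9, Ccl20, Cxcl1, Cxcl2, Cxcl3 and Cxcl10. The letters GAAA and GAAA with any 2 bases between, a form of the interferon response element searched on both strands, are in 2.98% of windows and in those of Cxcl10 and Cxcl14. A match is a description of the letters and not a measured binding site.

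Levels are log2 values of the deposited table, and the array medians lay between 4.84 and 4.95. The highest group mean was above the lower quartiles of all arrays (3.43 to 3.70) in 29 of 33 members. The group means of Ccl3, Ccl11, Ccl12 and Cxcl3 did not, so their signal need not exceed background, although Cxcl3 stood at 5.83 in Hepatocyte replicate 2. Changes come from 1 limma model of the 5 group means on all arrays, with Benjamini-Hochberg adjustment of p over the whole set of 18193 genes. Rose, fell and called mean an adjusted p below 0.05 together with a change of 2-fold or more, and errors of changes are standard errors (SE). By the moderated F test over the groups, without a fold limit, 16 of 33 members differed, beside 46.8% of all genes.

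The labelled cells were set against fixed marker genes. Collagen Col1a1 stood between 12.83 and 13.61 in MSC, HD28, dHD28 and MLC and between 3.54 and 4.91 in Hepatocyte. Albumin reached 14.15 in Hepatocyte and at most 3.96 in MSC, dHD28 and MLC. HD28 replicate 3 stood apart, with albumin at 13.80 beside 3.38 and 3.74 in the other HD28 arrays, so some HD28 results are also given without it. Changes of genes other than the members are given with all arrays only. A list of Kupffer cell and macrophage markers averaged 5.86 to 7.51 in Hepatocyte, 3.90 to 5.21 in HD28 and 3.86 to 4.17 in MSC, dHD28 and MLC. The poly-A spike-in controls, added to RNA before labelling, were high in 6 arrays and low in 9, and each group held both classes. The high class comprised MSC replicate 1, HD28 replicate 2, dHD28 replicate 2, Hepatocyte replicate 1 and MLC replicates 1 and 2.

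**Figure D1:**
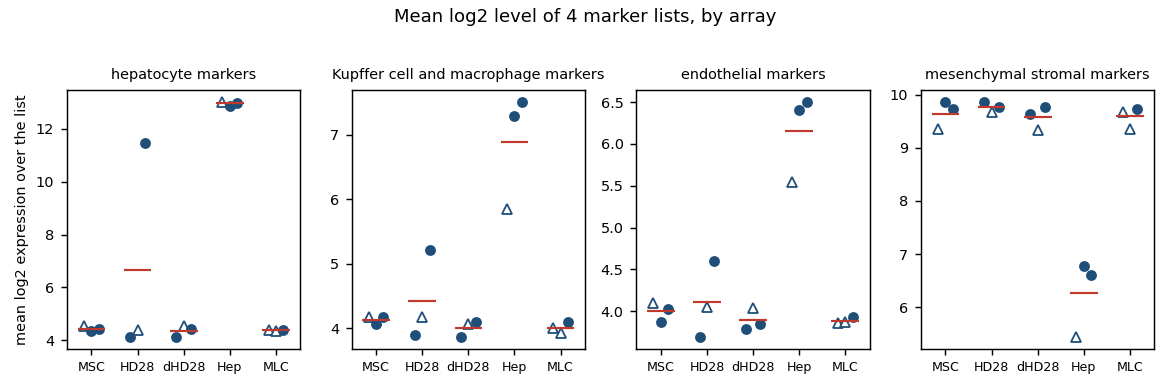
Mean log2 level of 4 lists of cell type markers in each of the 15 arrays. Points are arrays, open triangles mark high poly-A spike-in signal, and red lines are group means. HD28 replicate 3 lies at 11.47 on the hepatocyte list, beside 12.87 to 13.02 in Hepatocyte. Hepatocyte replicate 1 is lowest of its group on the Kupffer cell, endothelial and mesenchymal stromal lists.

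Over the hepatogenic protocol and the return from it, the shares of members called were low, as were those of all genes. In HD28 against MSC, 1 member fell (Cx3cl1) and 0 rose, 3.03% of members beside 6.77% of all genes, of which 3.52% fell. The median change of the members was 0.03, and that of all genes was -0.08. All HD28 arrays lay above all MSC arrays in 1 member and below in 3, beside 10.7% and 19% of all genes. In dHD28 against HD28, Cx3cl1 rose and Ccl8 fell, 6.06% of members beside 8.82% of all genes, with medians of -0.03 and 0.05. All dHD28 arrays lay above all HD28 arrays in 2 members and below in 4, beside 17% and 12.3% of all genes. Both comparisons share the HD28 arrays. Without HD28 replicate 3 the members called were Cx3cl1 in the first and Ccl8 in the second. In dHD28 against MSC limma called 0 members and 0 of all genes (0%), and 0 members had an unadjusted p under 0.05. There 0 members lay wholly above and 2 wholly below MSC, beside 1.44% and 3.5% of all genes.

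Cx3cl1, the membrane-bound ligand of Cx3cr1, followed the protocol down and up again. It stood at 8.15, 8.11 and 7.69 in MSC, at 6.55, 6.98 and 6.70 in HD28 and at 7.59, 8.09 and 7.60 in dHD28. All HD28 arrays lay below all arrays of the other stromal groups, which overlapped one another. The fall in HD28 was 2.36-fold (log2 -1.24 ± 0.26, SE, n = 3 per group, limma adjusted p = 0.0086), and without HD28 replicate 3 it was -1.21 (adjusted p = 0.028). The rise in dHD28 was 2.02-fold (log2 1.01 ± 0.26, adjusted p = 0.021), at the fold limit. It lost the call without HD28 replicate 1 (0.92, adjusted p = 0.071), without HD28 replicate 3 (0.99, adjusted p = 0.058) and without dHD28 replicate 2 (0.85, adjusted p = 0.092). Within the low spike-in class the fall was 1.27 log2 units (2 arrays per group) and within the high class it was 1.17 (1 array per group).

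The lowest levels of Cx3cl1 were in Hepatocyte, at 4.46, 5.39 and 5.44, and MLC stood at 7.98, 8.12 and 7.61. Hepatocyte lay below every other array, and MLC overlapped MSC. The gene was 7.38-fold lower in Hepatocyte than in MSC (log2 -2.88 ± 0.26, adjusted p = 1.3e-06) and 7.00-fold higher in MLC than in Hepatocyte (log2 2.81 ± 0.26, adjusted p = 1.6e-06). HD28 was 3.13-fold above Hepatocyte (log2 1.65 ± 0.26, adjusted p = 1.9e-04). By this probe set HD28 lay between the other stromal groups and Hepatocyte, with no overlap on either side. Its neighbours Ccl17, which stood between 4.61 and 5.14 over all arrays, and Ccl22, between 3.74 and 4.40, were called in 0 of the 7 comparisons.

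The gene has 4 probe sets, and the dimmer ones did not all repeat the pattern. The second brightest changed by -0.82 in HD28 against MSC, with an adjusted p of 0.086 over all probe sets. It stood at 7.04, 6.72 and 6.47 in MSC and at 6.25, 6.26 and 5.25 in HD28, lowest in replicate 3. Part of its fall came with that array, and its changes without that array are not given. Its change in dHD28 against HD28 was 0.93, and it was lower in Hepatocyte than in MSC by a log2 change of -1.44 (adjusted p = 7.9e-04). The remaining 2 averaged 3.88 and 3.81, near the lower quartile, and changed by -0.20 and -0.03 in Hepatocyte against MSC. In HD28 against MSC they changed by -0.54 and -0.36 (adjusted p = 0.038 and 0.37), under the fold limit. Their HD28 means, 3.51 and 3.60, lay below their Hepatocyte means of 3.84 and 3.93. With the mean of all probe sets in place of the brightest, the change in HD28 was -0.74 and that in dHD28 was 0.60, both under the fold limit. The receptor Cx3cr1 stood between 3.55 and 4.15 in all arrays and was not called.

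**Figure D2:**
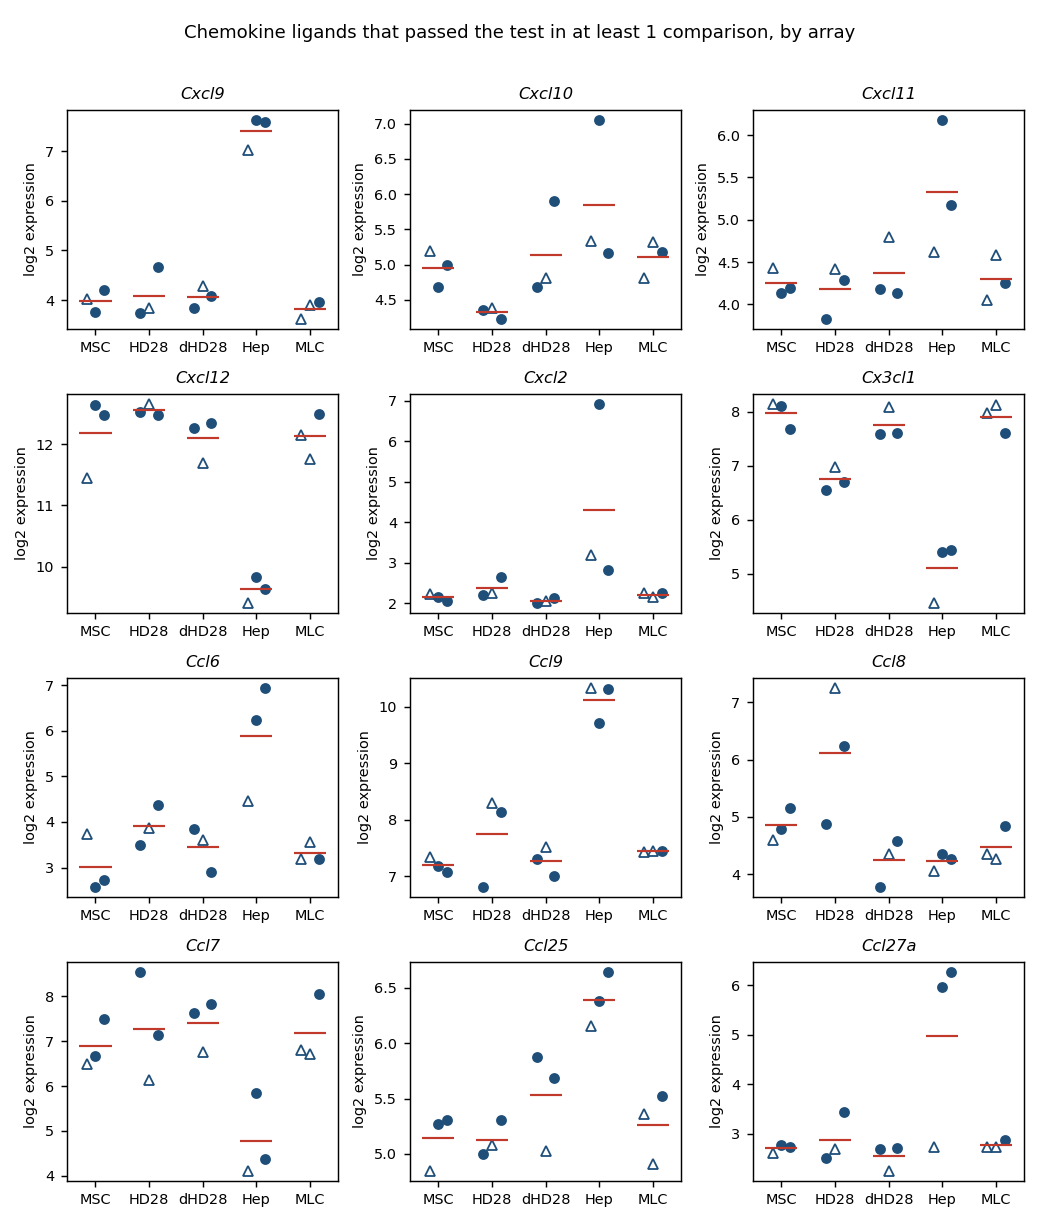
Log2 expression of the 12 chemokine ligands that passed the test in at least 1 of 7 comparisons, by array and group. Points are arrays, open triangles mark high poly-A spike-in signal, and red lines are group means. Cxcl9, Ccl9 and Ccl25 are highest and Cx3cl1 and Cxcl12 lowest in all Hepatocyte arrays, and Cx3cl1 in HD28 lies between.

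Ccl8, a monocyte attractant also called Mcp2, was the other member that moved in the round trip. Its levels were 4.60, 4.79 and 5.16 in MSC, 4.87, 7.25 and 6.23 in HD28 and 3.78, 4.36 and 4.58 in dHD28. HD28 replicates 2 and 3 were above every other array, whereas HD28 replicate 1 lay within the range of MSC. The change from MSC to HD28 was 1.27 ± 0.44 (adjusted p = 0.09) and did not pass the test. It passed without HD28 replicate 1 (1.89, adjusted p = 0.0034). With the replicate number as a block it had an adjusted p of 0.048.

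From HD28 to dHD28, Ccl8 fell 3.68-fold (log2 -1.88 ± 0.44, adjusted p = 0.012), and all dHD28 arrays lay below all HD28 arrays. Without HD28 replicate 3 the value was -1.82 (adjusted p = 0.039), and without dHD28 replicate 1 it was -1.65 and lost the call (adjusted p = 0.062). Among arrays of low spike-in signal alone the change was -1.37 (adjusted p = 0.12), a choice made after the data were seen. HD28 was also 3.71-fold above Hepatocyte (log2 1.89 ± 0.44, adjusted p = 0.0034), where Ccl8 stood at 4.06, 4.35 and 4.27. MLC stood at 4.34, 4.26 and 4.84. Its neighbours Ccl11 and Ccl12 stayed between 2.26 and 3.24 in all arrays.

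Cxcl12, the stromal ligand of Cxcr4, was high in every stromal group. It stood at 11.45, 12.63 and 12.48 in MSC, at 12.53, 12.66 and 12.48 in HD28, at 12.27, 11.69 and 12.35 in dHD28 and at 12.16, 11.76 and 12.49 in MLC. Hepatocyte stood at 9.41, 9.84 and 9.64, apart from all other arrays. Hepatocyte was 5.88-fold below MSC (log2 -2.56 ± 0.29, adjusted p = 8.7e-06), and MLC was 5.67-fold above Hepatocyte (log2 2.50 ± 0.29, adjusted p = 1e-05). HD28, after the protocol toward a hepatocyte-like state, was 7.60-fold above Hepatocyte (log2 2.93 ± 0.29, adjusted p = 4e-06).

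The probe sets of Cxcl12 disagreed on HD28. The one used here changed by 0.37 in HD28 against MSC (adjusted p = 0.53 over all probe sets), while the next stood at 10.80, 11.98 and 11.96 in MSC and at 10.81, 10.04 and 10.79 in HD28. That set changed by -1.03 in HD28 (adjusted p = 0.11) and by 0.95 in dHD28 against HD28 (adjusted p = 0.12). Neither change passed the test, and the difference between the probe sets was not tested. In HD28 against Hepatocyte it changed by 0.66 (adjusted p = 0.18), beside the rise of the set used here. Both sets were lower in Hepatocyte than in MSC, the second by a log2 change of -1.69 (adjusted p = 0.0023). The third set changed by 0.21 there. Cxcr4 stood between 2.44 and 4.23 over all arrays and Ackr3, the other receptor of Cxcl12, between 2.51 and 4.72, and neither was called in any comparison.

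**Figure D3:**
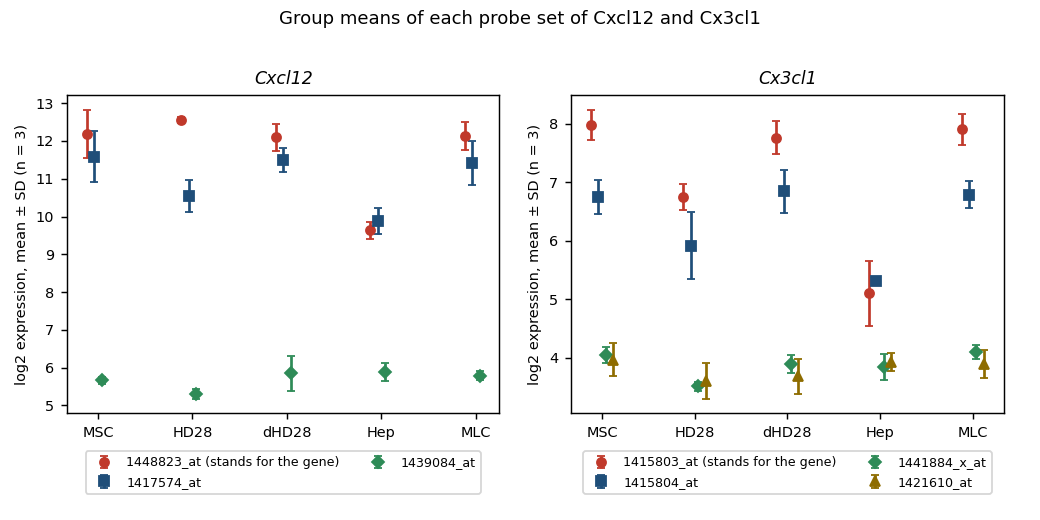
Log2 expression of each probe set of Cxcl12 and Cx3cl1 by group, as mean and SD of 3 arrays. The 2 brighter Cxcl12 sets are both lowest in Hepatocyte but part in HD28, where their means are 12.56 and 10.55, and the 2 brighter Cx3cl1 sets are both lower in HD28 than in MSC and lowest in Hepatocyte.

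Primary hepatocytes differed from MSC in more members. In Hepatocyte against MSC, 7 members rose and 3 fell, 30.3% of members beside 30.1% of all genes, so the share called was near the background. Of all genes 11.8% rose and 18.3% fell. The median change of the members was 0.38, and that of all genes was 0.04. Centring on housekeeping genes shifted the median over all genes by 0.38, and then 11 members rose and 3 fell, beside 30.6% of all genes called. With each array left out in turn the count ran from 8 to 11. All Hepatocyte arrays were above all MSC arrays in 12 members and below in 4, beside 24.7% and 27.9% of all genes.

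These samples are bulk RNA, so a cell type being rarer and its cells holding less RNA cannot be told apart. Markers of other liver cells moved with the Hepatocyte group. Of 16 Kupffer cell and macrophage markers 13 rose against MSC, and of 10 endothelial markers 9 rose. The macrophage gene Adgre1 stood at 5.95, 6.39 and 6.48 in Hepatocyte and between 3.09 and 3.80 elsewhere. C1qb stood at 6.90, 7.84 and 8.93 there and between 2.83 and 4.98 elsewhere. The part of these cells in the Hepatocyte results that follow was not tested.

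The interferon-induced ligand Cxcl9 had the largest change. It stood at 7.03, 7.63 and 7.58 in Hepatocyte and between 3.62 and 4.67 in the other 12 arrays, where the highest was HD28 replicate 3. It was 10.8-fold above MSC (log2 3.43 ± 0.25, adjusted p = 2e-07), and 10.1-fold above HD28. MLC lay below Hepatocyte by a log2 change of -3.59 ± 0.25 (adjusted p = 1.3e-07). A second, dim probe set changed by 0.74 in Hepatocyte against MSC.

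Its neighbours Cxcl10 and Cxcl11 moved less evenly. Cxcl10 stood at 5.33, 7.05 and 5.16 in Hepatocyte, at 5.19, 4.68 and 4.99 in MSC and at 4.36, 4.38 and 4.23 in HD28. All HD28 arrays were below all MSC arrays, but the change of -0.63 ± 0.43 did not pass (adjusted p = 0.42). The dHD28 arrays, at 4.68, 4.81 and 5.90, and the MLC arrays, at 4.80, 5.33 and 5.18, overlapped MSC. Only HD28 against Hepatocyte was called (log2 -1.53 ± 0.43, adjusted p = 0.011), and it fell under the fold limit without Hepatocyte replicate 2 (-0.93, adjusted p = 0.031).

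Cxcl11 stood at 4.62, 6.18 and 5.17 in Hepatocyte, at 4.43, 4.14 and 4.19 in MSC and at 3.83, 4.42 and 4.29 in HD28. It was at 4.18, 4.80 and 4.13 in dHD28 and at 4.06, 4.58 and 4.26 in MLC. Hepatocyte replicate 1 lay below dHD28 replicate 2 but above all MSC arrays. The rise in Hepatocyte against MSC was 2.10-fold (log2 1.07 ± 0.33, adjusted p = 0.016). Without Hepatocyte replicate 2 the change was 0.64 and without MSC replicate 2 it was 1.02, and neither was called (adjusted p = 0.067 and 0.051). Its second probe set, dim throughout, changed by 0.07.

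Of the 15 measured regulators of the interferon response, Irf7, Irf2 and Ifnar2 rose in Hepatocyte against MSC and 0 fell, beside 30.1% of all genes called, with a list median of 0.10 beside 0.04 for all genes. In HD28, Irf5 fell (log2 -1.74 ± 0.20, adjusted p = 1.5e-04) and Irf2 rose (log2 1.17 ± 0.30, adjusted p = 0.024). Both changed back in dHD28, Irf5 by 1.68 and Irf2 by -1.10. Irf2 stood at 6.87, 7.14 and 7.65 in HD28, highest in replicate 3, and its changes without that array are not given. Irf5 and Irf2 are transcription factors of the interferon pathway, and none of Cxcl9, Cxcl10 and Cxcl11 was called in those comparisons.

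Ccl9 and Ccl6, neighbouring genes of mouse macrophage-associated ligands, both rose in Hepatocyte, but with different patterns over its arrays. Ccl9 stood at 10.34, 9.72 and 10.32 in Hepatocyte, at 7.35, 7.19 and 7.08 in MSC, at 6.82, 8.31 and 8.14 in HD28, at 7.31, 7.52 and 7.01 in dHD28 and at 7.43, 7.45 and 7.45 in MLC. No other array reached the lowest Hepatocyte array. Its rise over MSC was 7.56-fold (log2 2.92 ± 0.31, adjusted p = 5.7e-06), and the second probe set rose by 3.11. In HD28 the change was 0.54 (adjusted p = 0.33), and without HD28 replicate 1 it was 1.01 (adjusted p = 0.01).

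Ccl6 stood at 4.46, 6.24 and 6.94 in Hepatocyte, at 3.74, 2.58 and 2.72 in MSC, at 3.50, 3.87 and 4.38 in HD28, at 3.85, 3.60 and 2.91 in dHD28 and at 3.18, 3.56 and 3.20 in MLC. Hepatocyte replicate 1 lay just above HD28 replicate 3. Ccl6 rose 7.30-fold in Hepatocyte against MSC (log2 2.87 ± 0.52, adjusted p = 4.6e-04). That size is approximate because the MSC mean lies below the arrays' lower quartiles. The second probe set rose by only 1.36 (adjusted p = 0.014 over all probe sets). By the probe set used here, Ccl6 changed by 3.94 within the low spike-in class (2 arrays per group). Within the high class (1 array per group) it changed by 0.72. That class holds only replicate 1 of MSC and of Hepatocyte, so the array and the class cannot be told apart. Hepatocyte replicate 1 also had the lowest mean of the macrophage list in its group (5.86), with 14 of its 16 markers lowest there. Cd5l was at 5.46 beside 8.45 and 8.78 and Ptprc at 4.91 beside 7.57 and 6.88. Other lists were lowest there too, the mesenchymal stromal one at 5.44 beside 6.77 and 6.62 (9 of 11 markers). The endothelial one was at 5.54 beside 6.41 and 6.50 (8 of 10). Of all genes, 4.12% lay at least 1 log2 unit below both others in that array, and the share merely lowest there is not given. Ccl9 was highest of its group in that array, at 10.34 beside 9.72 and 10.32, and at 9.81 beside 8.20 and 9.07 by its second probe set. The part of macrophages in the Ccl6 difference was not tested. Ccl3, of the same gene run, was at 3.24, 3.65 and 3.01 in Hepatocyte and between 2.42 and 2.88 elsewhere, and its change of 0.69 was under the fold limit.

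Ccl27a split the hepatocyte arrays. It stood at 2.73, 5.96 and 6.28 in Hepatocyte, at 2.61, 2.77 and 2.73 in MSC, at 2.51, 2.70 and 3.44 in HD28, at 2.70, 2.25 and 2.72 in dHD28 and at 2.73, 2.74 and 2.87 in MLC. Hepatocyte replicate 1 lay at the level of the stromal arrays, and the other two were far above all. The model called a rise of 4.86-fold over MSC (log2 2.28 ± 0.66, adjusted p = 0.012), which was lost without Hepatocyte replicate 2 (1.80, adjusted p = 0.059) or replicate 3 (1.64, adjusted p = 0.064). Its MSC mean too lies below the lower quartiles, so the size is approximate. Its 1 probe set is of the kind marked as able to bind other transcripts.

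Ccl25, known for guiding T cells to gut and thymus, changed evenly. It stood at 6.15, 6.38 and 6.64 in Hepatocyte, at 4.85, 5.27 and 5.31 in MSC, at 5.00, 5.08 and 5.30 in HD28, at 5.87, 5.03 and 5.68 in dHD28 and at 5.36, 4.91 and 5.52 in MLC. Hepatocyte lay above all other arrays. The rise over MSC was 2.37-fold (log2 1.25 ± 0.24, adjusted p = 6.5e-04), and its second probe set changed by 0.87. MLC was 2.18-fold below Hepatocyte (log2 -1.13 ± 0.24, adjusted p = 0.0014), which fell under the fold limit without MLC replicate 2 (-0.95, adjusted p = 0.0088).

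Ccl7, the monocyte attractant Mcp3, was the third member to fall in Hepatocyte, beside Cx3cl1 and Cxcl12. Levels were 4.11, 5.85 and 4.37 in Hepatocyte, 6.50, 6.66 and 7.49 in MSC, 8.54, 6.14 and 7.12 in HD28, 7.64, 6.77 and 7.82 in dHD28 and 6.80, 6.71 and 8.04 in MLC. All Hepatocyte arrays lay below all others. The fall against MSC was 4.29-fold (log2 -2.10 ± 0.61, adjusted p = 0.012), and it lost the call without MSC replicate 3 (-1.80, adjusted p = 0.052) or Hepatocyte replicate 1 (-1.77, adjusted p = 0.054). In MLC against Hepatocyte the rise was 5.28-fold (log2 2.40 ± 0.61, adjusted p = 0.0051).

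Its neighbour Ccl2, the main monocyte attractant, was not called. It stood at 5.22, 8.69 and 4.23 in Hepatocyte, at 7.10, 7.34 and 7.75 in MSC, at 7.97, 6.91 and 7.94 in HD28, at 8.19, 7.50 and 8.06 in dHD28 and at 7.43, 7.27 and 8.81 in MLC. Hepatocyte replicate 2 was above all MSC arrays and the other two were below them. With all arrays the change against MSC was -1.35 ± 0.84 (adjusted p = 0.22), and without Hepatocyte replicate 2 it was -2.67 (adjusted p = 6.6e-04).

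The neutrophil attractants varied widely between arrays of a group. Cxcl2 stood at 3.20, 6.92 and 2.81 in Hepatocyte and between 2.01 and 2.65 in the other 12 arrays. Its rise over MSC was 4.47-fold (log2 2.16 ± 0.74, adjusted p = 0.029). Without Hepatocyte replicate 2 the change was 0.86 (adjusted p = 0.0012), under the fold limit, and without MSC replicate 1, 2 or 3 the adjusted p was 0.055, 0.064 or 0.069. Its MSC mean lies below the arrays' lower quartiles, and the size is approximate.

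Cxcl3 stood at 2.15, 5.83 and 2.02 in Hepatocyte and between 1.70 and 2.70 elsewhere, and its change of 1.49 ± 0.73 was not called (adjusted p = 0.12). Cxcl1 stood at 8.81, 8.92 and 7.62 in Hepatocyte, at 6.39, 7.43 and 8.49 in MSC, at 7.72, 7.11 and 9.24 in HD28, at 7.41, 6.87 and 7.21 in dHD28 and at 7.55, 6.81 and 10.12 in MLC. Every group overlapped another, and Cxcl1 was called in 0 comparisons. The promoters printed above are those of these 3 genes. Cxcl2 and Cxcl3 had their highest value of all arrays in Hepatocyte replicate 2. Cxcl1 was highest of the Hepatocyte group there too, at 8.92 beside 8.81 and 7.62, but highest of all arrays in MLC replicate 3 (10.12).

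Cxcl5 had the widest spread of the members. It stood at 4.41, 8.07 and 9.93 in MSC, at 5.75, 4.73 and 9.28 in HD28, at 7.95, 5.57 and 7.02 in dHD28, at 2.86, 8.05 and 3.90 in Hepatocyte and at 7.89, 5.65 and 11.64 in MLC. The pooled SD within groups was 2.52, at the 100th percentile of all genes, and the groups overlapped throughout. Cxcl1, Ccl2, Cxcl2 and Cxcl3 also had an SD of 1.01 to 1.17, at the 98th percentile or above, while the median over members was 0.32 and over all genes 0.27. The change in MLC against Hepatocyte, 3.46 ± 1.81, was not called (adjusted p = 0.14).

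Part of this spread moved with the spike-in class. With groups in the model, Cxcl5 was lower in the high class by a log2 change of -3.45 ± 0.76 (adjusted p = 0.013) and Ccl7 by -1.10 (adjusted p = 0.02). These were the members called, 6.06% beside 2.22% of all genes, among which 397 fell and 6 rose with high signal. Cxcl1 (-1.16, adjusted p = 0.082) and Ccl2 (-0.96, adjusted p = 0.21) were not called. With the class as a block, Cxcl5 in MLC against Hepatocyte was 4.61 (adjusted p = 0.0052) and Ccl2 was 2.11 (adjusted p = 0.038), both called.

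**Figure D4:**
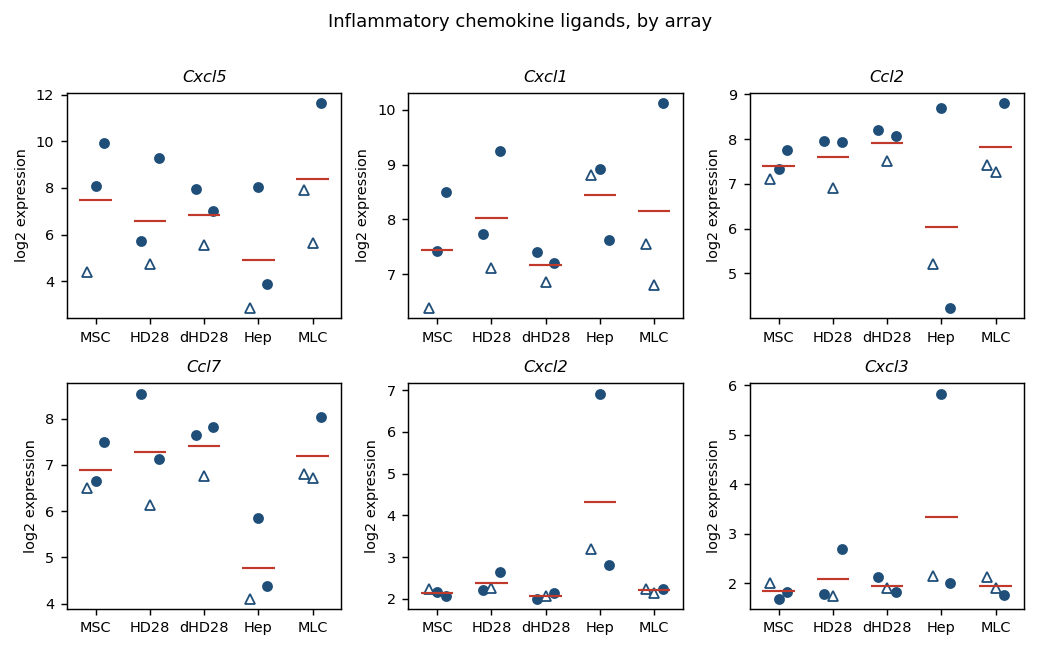
Log2 expression of 6 inflammatory chemokine ligands by array and group. Points are arrays, open triangles mark high poly-A spike-in signal, and red lines are group means. Hepatocyte replicate 2 is far above its group in Cxcl5, Ccl2, Cxcl2 and Cxcl3, and MLC replicate 3 is highest of all arrays in Cxcl5, Cxcl1 and Ccl2.

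Single arrays departed from their groups in these ligands. In Hepatocyte replicate 2, 8 members were at least 1 log2 unit above both other Hepatocyte arrays, namely Ccl2, Ccl5, Ccl7, Cxcl2, Cxcl3, Cxcl5, Cxcl10 and Cxcl11. They are 24.2% of members beside 1.38% of all genes in that array. Of 33 measured genes of the NF-kB and toll-like receptor pathway 4 did the same (Cd14, Ptgs2, Relb and Tnfaip3). In MLC replicate 3, 4 members did (Ccl2, Ccl7, Cxcl1 and Cxcl5), 12.1% beside 1.39%. So did 4 of the 33 NF-kB and toll-like receptor genes there (Irak3, Ly96, Nfkbiz and Tlr4). MLC replicate 3 is the only MLC array of low spike-in signal, so the array and the class cannot be told apart within that group. Ccl2, Ccl7, Cxcl1 and Cxcl5 also had the lowest values of the high class against the low one among the members. In HD28 replicate 1, Ccl7 and Cxcl14 were at least 1 log2 unit above both others (6.06% of members beside 0.764% of all genes), and Ccl8 and Ccl9 as far below (6.06% beside 0.599%). These arrays were singled out after their values were seen, and the counts carry no test. Ccl5, an attractant of T cells and monocytes, stood at 4.98, 7.35 and 5.90 in Hepatocyte and between 4.66 and 6.27 elsewhere.

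By the probe sets used here, HD28 replicate 3, whose hepatocyte markers were high, had Cx3cl1 (6.70) and Cxcl12 (12.48) near the other HD28 arrays. The second brightest Cx3cl1 set did not repeat this. It stood at 5.25 there, beside 6.25 and 6.26 in the other HD28 arrays and a mean of 5.30 in Hepatocyte. Cxcl9 in this array stood at 4.67, beside 3.74 and 3.84 in the other HD28 arrays and 7.03 or more in Hepatocyte. Markers of other liver cells were also higher in this array. Of 16 Kupffer cell and macrophage markers 13 were highest of the HD28 group there, with list means of 5.21 beside 3.90 and 4.17. Of 10 endothelial markers 9 were, with 4.60 beside 3.69 and 4.05. The share of all genes highest there is not given. At least 1 log2 unit above both others were 6 of the 16 and 2 of the 10, beside 3.41% of all genes. Of 11 mesenchymal stromal and 9 lymphocyte and neutrophil markers, 0 were. Cd5l stood at 6.10 beside 3.10 and 3.34. The part of other liver cells in the Cxcl9 level was not tested. In this array 2 members, Cxcl1 and Cxcl5, were at least 1 log2 unit above both others, 6.06% beside 3.41% of all genes.

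**Figure D5:**
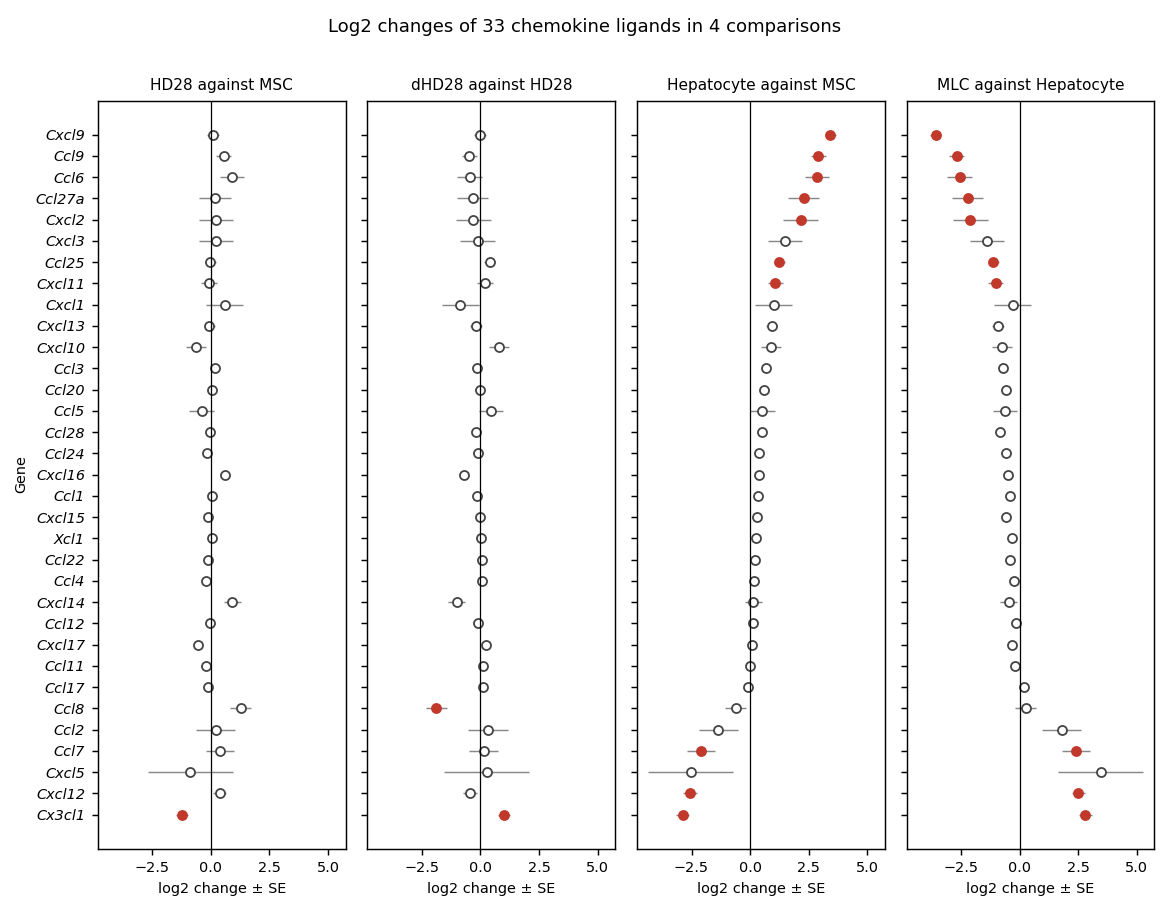
Log2 change and SE of all 33 members in 4 comparisons, ordered by the change in Hepatocyte against MSC. Filled red points were called (adjusted p under 0.05, fold at least 2). The panels for HD28 against MSC and dHD28 against HD28 hold 1 and 2 called members, and those for Hepatocyte against MSC and MLC against Hepatocyte hold 10 each.

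In MLC against Hepatocyte, 3 members rose and 7 fell, 30.3% beside 30.5% of all genes. The arrays did not overlap in 3 members higher and 17 lower, beside 28.8% and 28.3% of all genes. The called members were the same 10 as in Hepatocyte against MSC, with opposite signs, and these comparisons share the Hepatocyte arrays. Centred on housekeeping genes, 3 members rose and 15 fell, beside 32.6% of all genes called. In MLC against MSC limma called 0 members and 0 of all genes (0%), and 2 members had an unadjusted p under 0.05. Of the members, 1 was higher in all MLC arrays than in all MSC arrays (Ccl9, by 0.24) and 3 were lower, beside 1.5% and 3.78% of all genes. HD28 against Hepatocyte had 4 members higher and 8 lower, 36.4% beside 26.5% of all genes, and the counts were the same without HD28 replicate 3. The arrays did not overlap in 4 members higher and 15 lower, beside 26.6% and 29.1% of all genes.

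The change on transfer to MSC medium was compared between the lines, as MLC minus Hepatocyte less dHD28 minus HD28. For HD28 the transfer was a return, while hepatocytes were put into that medium for the first time and with TGF-β1 to day 28, so the arms differ in TGF-β1 as well as in the starting cells. It differed for 7 members, 3 above 0 and 4 below, 21.2% beside 23.7% of all genes, of which 9.96% were below. The contrast equals HD28 minus Hepatocyte plus MLC minus dHD28, so it contains the difference between the starting cells. The same 7 members were called in HD28 against Hepatocyte with the same signs, with Cxcl12 at 2.93 and Cxcl9 at -3.33 there. The contrast alone therefore does not show a different response to the medium. Cxcl12 rose by 2.50 from Hepatocyte to MLC and changed by -0.45 from HD28 to dHD28, a difference of 2.96 ± 0.41 (adjusted p = 1.7e-04). Its second probe set changed by 1.53 and 0.95, a difference of 0.58 ± 0.52 (adjusted p = 0.47), and with the mean of all probe sets the difference was 0.97 (adjusted p = 0.033), under the fold limit. Cxcl9 changed by -3.59 and -0.02, a difference of -3.57 ± 0.35 (adjusted p = 1.4e-05). Cx3cl1 rose in both, and by the probe set used here the rise was larger from Hepatocyte by 1.79 ± 0.37 (adjusted p = 0.0026). Its second probe set gave a difference of 0.56 ± 0.38 (adjusted p = 0.34), and the dim ones gave -0.11 and -0.14. Ccl8 changed by 0.25 and -1.88, a difference of 2.13 ± 0.62 (adjusted p = 0.02).

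Members not called in any of the 7 comparisons moved little or unevenly. In HD28, Cxcl16, the membrane-bound ligand of Cxcr6, stood at 7.32, 7.85 and 7.20, above 6.79, 7.02 and 6.78 in MSC and 6.66, 6.82 and 6.76 in dHD28. Its change of -0.71 ± 0.20 in dHD28 against HD28 had an adjusted p of 0.028 but was under the fold limit. Cxcl14, an epithelial and stromal ligand, stood at 6.50, 4.53 and 5.27 in HD28 and between 3.82 and 4.92 elsewhere, and its change against MSC was not called (0.90 ± 0.36, adjusted p = 0.14). It was called without HD28 replicate 2 (1.36, adjusted p = 0.021).

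Cxcl13, the B cell attractant, stood at 5.37, 6.31 and 6.33 in Hepatocyte and between 4.63 and 5.43 elsewhere. Its change against MSC, 0.92 ± 0.25 (adjusted p = 0.0077), was just under the fold limit, and its second probe set rose by 1.92. Ccl28 (0.50) and Ccl20 (0.59) had adjusted p of 0.0082 and 0.027 in the same comparison and stayed under the fold limit too. The dimmer probe sets of Ccl28 changed by -0.22 and -0.07 there. Ccl1, Ccl4, Ccl11, Ccl12, Ccl17, Ccl22, Ccl24, Cxcl15, Cxcl17 and Xcl1 were not called, and their group means spanned less than 1 log2 unit.

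Other chemokine genes were read from fixed lists. In Hepatocyte against MSC their counts stand beside 30.1% of all genes called and a median of 0.04 over all genes. Of 21 measured receptors, 1 rose in Hepatocyte against MSC and 0 fell, with a median of 0.27. That was Ackr2, a decoy that scavenges CC ligands, at 5.49, 5.74 and 6.10 in Hepatocyte and between 4.12 and 4.79 elsewhere (2.83-fold, adjusted p = 9.2e-06). Of 4 related cytokines that the symbol rule leaves out, the platelet chemokine Pf4 rose by 1.17 and Mif and Cklf fell by 1.42 and 1.14.

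Of 33 measured genes of the NF-kB and toll-like receptor pathway, 2 rose (Icam1 and Il1r1) and 13 fell in Hepatocyte against MSC, beside 30.1% of all genes, with a median of -0.77 beside 0.04. The largest falls were in Ptgs2 (log2 -5.02 ± 0.80, adjusted p = 1.6e-04), the enzyme of prostaglandin synthesis, Tlr4, Vcam1 and Tlr1. Ptgs2 fell by 3.80 in HD28 and rose by 4.31 in dHD28, where no other gene of the list was called (6.77% and 8.82% of all genes were). Of 18 cytokines, 2 rose and 3 fell in Hepatocyte against MSC, with a median of 0.09, the largest being Csf1 (log2 -4.67 ± 0.37), the growth factor of macrophages. Ereg fell by 1.87 in HD28 and rose by 2.44 in dHD28.

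Of 13 proteases and proteoglycan partners of chemokines, Mmp2, which can cut Cxcl12, rose in HD28 (log2 1.57 ± 0.36, adjusted p = 0.014) and fell in dHD28 by 1.96. Mmp13 fell in dHD28 by 5.77 ± 1.68 (adjusted p = 0.037). In Hepatocyte against MSC 2 rose (Dpp4 and Sdc4) and 4 fell, beside 30.1% of all genes, with a median of -0.39 beside 0.04. Dpp4, a peptidase that trims Cxcl12 and Cxcl10, rose by 1.41 (adjusted p = 2.5e-04).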

How the data were processed

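The authors deposited log2 expression values of 45101 probe sets of Affymetrix mouse arrays, made by RMA, per the submitters' processing notes. RMA subtracts background, forces all arrays to a common distribution and combines a set's probes, so a shift of most genes in 1 direction would be hidden. Its version is not given in the sources used here, and the log base was taken as 2 from the values (1.32 to 14.15). Biotinylated cRNA came from 5 µg of Trizol-extracted total RNA, per the labels' protocols. Probe sets with several symbols (932) or none (9160) were left out, among them 4 of chemokines. Precision is limited by the number of arrays.

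limma 3.58.1 in R 4.3.3 was fitted to all 15 arrays as group means, with 10 residual degrees of freedom. The test was two-sided and was tested on simulated data. SD and n = 3 refer to arrays of a group. Members and lists were chosen with earlier results of these data known. Members called in at least 1 of 7 comparisons are given array by array, others mostly by range; from each list every called gene or the 4 with the largest change could be named. Cd5l, Ptprc and the receptors and genes given by range were named after their values were seen.

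Between HD28 and dHD28 same-number arrays deviated together from their group means (correlations of 0.32, 0.28 and 0.12), and these pairs also share the spike-in class. Every other comparison of the 7 had a pair under 0.1. Alternatives were the mean of all probe sets, other probe set and gene filters, other scalings, array weights, trend and robust options, fits to the compared arrays alone, no limit on fold, leaving out each array, and a block for the replicate number or spike-in class. Use of only arrays of low spike-in signal was added after seeing the data. All 33 members matched RefSeq (GRCm38.p6), whose promoter table has windows for 23 of them.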

Additional observations from a re-analysis of the deposited data

Results flagged for a closer look

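The change on transfer to MSC medium, MLC minus Hepatocyte less dHD28 minus HD28, differed by limma's test of that contrast for 7 members. The first arm also had TGF-β1. The contrast contains the difference of HD28 from Hepatocyte, in which the same 7 members were called with the same signs. The log2 difference was 2.96 for Cxcl12, 1.79 for Cx3cl1 and 2.13 for Ccl8. It was -3.57 for Cxcl9, -2.21 for Ccl9, -2.11 for Ccl6 and -1.53 for Ccl25. The second probe sets of Cxcl12, Cx3cl1 and Ccl6 gave 0.58, 0.56 and -1.14 (adjusted p = 0.47, 0.34 and 0.17). Those of Ccl9, Cxcl9 and Ccl25 gave -2.71, -0.86 and -1.29 (adjusted p = 0.0019, 0.033 and 0.005). Of these members, Ccl6 had an adjusted p of 0.046 with all arrays and 0.11 without Hepatocyte replicate 3, where its difference was -1.57. Ccl8 was not called without dHD28 replicate 1 (1.90, adjusted p = 0.052). Groups of 3 arrays are too small for the test of a single outlying sample.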

How the results depend on the processing

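Of 42 called changes of members, 20 were called under every alternative that gave a value, 22 lost the call under at least 1 and 0 reversed. With the mean of all probe sets, 0 members were called in HD28 against MSC, 1 in dHD28 against HD28 and 4 in the difference between the changes on transfer to MSC medium. Among genes with a highest group mean above the median (13 members), 6 were called in Hepatocyte against MSC, 7 in HD28 against Hepatocyte, 6 in MLC against Hepatocyte and 9 by the F test. Centred on housekeeping genes, 18 were called in MLC against Hepatocyte and 25 by the F test; without a fold limit, 18 in MLC against Hepatocyte. With array weights 3 were called in HD28 against MSC and 1 in dHD28 against HD28. With only the arrays compared 1 was called in dHD28 against HD28, and 0 when the high spike-in class was left out. The cause of these differences was not tested. With the replicate number as a block, 2 were called in HD28 against MSC; it kept 2 in dHD28 against HD28 and also ended the call of Ccl6 in that difference (adjusted p = 0.063).

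With each array left out, the count was 1 to 3 in HD28 against MSC, 1 to 3 in dHD28 against HD28, 8 to 11 in Hepatocyte against MSC, 9 to 14 in HD28 against Hepatocyte, 8 to 11 in MLC against Hepatocyte, 5 to 10 for that difference between changes, 12 to 16 for the F test and 0 in dHD28 or MLC against MSC. HD28 against MSC had 3 without HD28 replicate 1 (Ccl8, Ccl9 and Cx3cl1) and 2 without HD28 replicate 2. A lone pair of arrays was then assumed to vary like the other groups. Dim genes limit the size of changes, since the table holds no detection calls.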
